A study of Mus musculus with 8 samples.

Results

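The 10 neuropeptide genes described here, Penk, Tac1, Pdyn, Sst, Npy, Vip, Cck, Cort, Adcyap1 and Nts, were taken by symbol from the 32285 genes of the count tables, and all 10 were found. C57BL/6JN mice of 3 months (young) and 21 months (old) gave nuclei from 2 regions, the anterior part of the hippocampus and the caudate putamen, and the RNA of the 10 genes was followed in neurons and in glia of both. Single nuclei of punches from the left hemisphere were freed with a lysis buffer, sorted by a DNA dye and sequenced on the 10x Genomics v3.1 platform, with 2 libraries for each of the 4 groups of region and age. Each library pooled nuclei of 1 male and 1 female of 1 age, so the library was the replicate, and all mice were untreated as far as the labels say. Whether libraries of the 2 regions come from the same animals is not stated. P-values measure the spread between these libraries of pooled animals, and nuclei carry only part of a cell's RNA.

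Neuropeptides are made as larger precursor proteins, which convertases cut and which are stored in dense core vesicles and act on receptors that couple to G proteins. In the caudate putamen, the dorsal striatum of the mouse, medium spiny neurons form the direct pathway, which carries the dopamine receptor Drd1 together with Tac1 (substance P) and Pdyn (dynorphins), and the indirect pathway, which carries Drd2 together with Penk (enkephalins). A sparse striatal interneuron that makes nitric oxide, through Nos1, is the textbook source of Sst (somatostatin) and Npy (neuropeptide Y) there. In the hippocampus Sst, Npy, Cort (cortistatin), Vip (vasoactive intestinal peptide) and Cck (cholecystokinin) are best known as marks of inhibitory interneurons, Cck is also made by pyramidal neurons and Pdyn by dentate granule neurons. Adcyap1 encodes PACAP, and Nts encodes neurotensin.

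The genes lie apart in the GRCm38 genome (GENCODE vM21 gene bounds, identifiers equal to those in the tables). Penk (ENSMUSG00000045573) is at chromosome 4, 4133531 to 4138819, minus strand, and Cort (ENSMUSG00000028971) at chromosome 4, 149125034 to 149126763, minus strand. Tac1 (ENSMUSG00000061762) is at chromosome 6, 7554879 to 7565834, plus strand, and Npy (ENSMUSG00000029819) at chromosome 6, 49822710 to 49829507, plus strand. Pdyn (ENSMUSG00000027400) is at chromosome 2, 129686565 to 129699844, minus strand, Sst (ENSMUSG00000004366) at chromosome 16, 23889573 to 23890958, minus strand, and Cck (ENSMUSG00000032532) at chromosome 9, 121489824 to 121495694, minus strand. Vip (ENSMUSG00000019772) is at chromosome 10, 5639218 to 5647617, plus strand, Nts (ENSMUSG00000019890) at chromosome 10, 102481756 to 102490486, minus strand, and Adcyap1 (ENSMUSG00000024256) at chromosome 17, 93199017 to 93206537, plus strand.

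Sst and Npy are shown by sequence because both were highest in the same class of striatal interneurons. RefSeq (GRCm38.p6) gave promoters for 9 of the 10 genes, and the palindrome TGACGTCA, the cAMP response element that the Sst promoter is known for, was searched in the 250 bases before each start, where both strands read alike. Of the 9 genes it was found only in Sst, 48 bases before the RefSeq start, and 508 of 32851 promoters of that length (1.55%) held it. GENCODE places the first base of Sst further upstream, so that the last 114 of its 250 bases lie inside the GENCODE gene, and only the 30 bases around the element are printed for it. Capitals mark the element, which is not in the 250 Npy bases, and the Sst stretch is chr16:23890874-23890903 on the minus strand and the Npy stretch chr6:49822460-49822709 on the plus strand:
Sst: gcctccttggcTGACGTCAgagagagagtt
Npy: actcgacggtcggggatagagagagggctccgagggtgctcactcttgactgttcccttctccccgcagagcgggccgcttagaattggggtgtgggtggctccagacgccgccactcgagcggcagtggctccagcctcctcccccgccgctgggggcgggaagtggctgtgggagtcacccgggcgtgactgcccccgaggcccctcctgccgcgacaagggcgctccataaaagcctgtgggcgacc
A match is a description of the letters and shows no binding.

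Libraries held 67205436 to 234811422 unique molecular identifiers (UMIs, each a counted RNA molecule), and after filtering 42294 hippocampal and 55356 caudate putamen nuclei were clustered without the 33 peptide genes that had been set aside, so that no peptide defined a class. Class names below stand for nuclei like that type by markers other than peptides. D1-like nuclei held 12 of 12 markers at a mean of at least 10 CPM (Drd1 78.6 to 99.5 CPM), D2-like nuclei 10 of 10 (Drd2 561 to 697 CPM) and Nos1-like nuclei 7 of 9. Per nucleus, Drd1 was 1.05 to 1.33 UMIs in D1-like and 0.108 to 0.164 UMIs in oligodendrocyte-like nuclei. In the hippocampus 4918 nuclei and in the caudate putamen 1363 stayed without a name. Libraries shared at most 0.77% of the barcodes of the smaller one. Levels are given on 2 scales: as CPM, the gene's count scaled to a common total for the summed counts of a class in a library, which depends on how much other RNA the class holds, and as UMIs per nucleus, which does not.

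Penk was highest in D2-like nuclei among the named classes of the caudate putamen. The 4 libraries, given throughout as young 1, young 2, old 1 and old 2, held 346, 383, 299 and 284 CPM of Penk in D2-like nuclei and 63.2, 69.0, 50.1 and 61.0 CPM in D1-like nuclei. D2-like and D1-like nuclei did not overlap. Glia lay between them on this scale, with 234, 269, 166 and 211 CPM in oligodendrocyte-like nuclei and a mean of 278 CPM (SD 67.5, n = 4) in microglia-like nuclei, whose range of 204 to 352 CPM overlaps that of D2-like nuclei. Per nucleus the order was another one.

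D2-like nuclei held 4.84, 5.91, 3.797 and 2.74 Penk UMIs per nucleus, while oligodendrocyte-like nuclei held 0.809, 1.05, 0.534 and 0.567. The 4 glial classes (oligodendrocytes, astrocytes, oligodendrocyte precursors or OPCs, and microglia) lay close together: in each library the highest of the 4 was 1.09 to 1.15 times the lowest. D2-like nuclei held 4.95 to 7.04 times as many Penk UMIs per nucleus as the 4 glial classes together. D1-like nuclei held 0.977, 1.17, 0.691 and 0.645, which is 1.10 to 1.28 times the glial level. Eccentric medium spiny neuron-like nuclei, a class with fewer nuclei than D1-like or D2-like, held 1.64, 1.73, 1.34 and 0.864 and were at 1.56 to 2.48 times the glial level. Per nucleus, D2-like and, less far, eccentric-like nuclei thus stood above a level that was close in glia, D1-like neurons and Nos1-like interneurons (1.01 to 1.34 times the glial level).

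**Figure D1:**
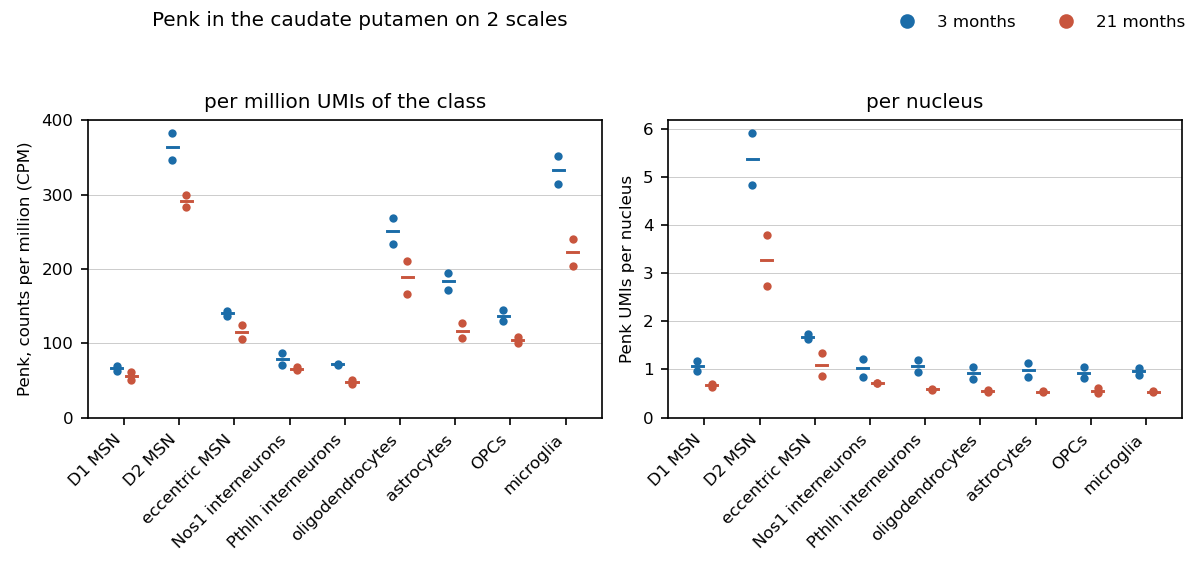
Penk in the caudate putamen by class, as CPM (left) and UMIs per nucleus (right). Each point is a library and each bar the mean of 2 libraries of 1 age (blue 3 months, red 21 months), MSN is medium spiny neuron, and glia are level with D1 MSN only on the right, where D2 MSN lie between 2.74 and 5.91. Old libraries were less deep, so the right side does not compare ages.

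D2-like nuclei held 60.1% to 66.7% of the Penk UMIs of a caudate putamen library, and the 4 glial classes together 11.4% to 16.5%. An unnamed cluster of 700 nuclei with a median depth under 1000 UMIs had the highest CPM of all, 1133, 1244, 987 and 729, but 1.08, 1.38, 0.946 and 0.80 UMIs per nucleus, 1.30 to 1.75 times the glial level. Subtracting the oligodendrocyte-like UMIs per nucleus of the same library from each class, a comparison added after the data were seen, left 288, 315, 257 and 225 CPM of Penk in D2-like and 10.9, 7.01, 11.4 and 7.37 CPM in D1-like nuclei. The droplets without nuclei that would measure free RNA directly are not analysed here.

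Tac1, the precursor of substance P and neurokinin A, was highest per nucleus in eccentric-like and D1-like nuclei among the named classes. Eccentric-like nuclei held 1.82, 2.77, 1.46 and 1.31 UMIs per nucleus (160, 220, 137 and 161 CPM). D1-like nuclei held 1.19, 1.54, 1.03 and 0.930 UMIs per nucleus (77.2, 90.8, 74.5 and 87.8 CPM). In every library the eccentric-like value exceeded the D1-like one on both scales. An unnamed cluster of 75, 88, 68 and 79 nuclei lay above D1-like nuclei too, with 1.97, 2.42, 1.63 and 1.18 UMIs per nucleus, and the unnamed cluster of low depth had the highest CPM, a mean of 435. Eccentric-like and D1-like nuclei stood 4.53 to 7.15 and 3.21 to 4.38 times above the 4 glial classes per nucleus. D2-like nuclei held 0.347, 0.414, 0.216 and 0.313 Tac1 UMIs per nucleus, beside 0.328, 0.385, 0.232 and 0.290 in oligodendrocyte-like nuclei, so their levels were alike. In CPM, by contrast, oligodendrocyte-like nuclei (94.7, 98.8, 72.2 and 108) were above D1-like nuclei in 3 of 4 libraries. Microglia-like and pericyte-like nuclei, with means of 119 and 111 CPM, were above the D1-like mean of 82.6 as well.

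Pdyn, the precursor of dynorphins, was highest in D1-like nuclei among the named classes. D1-like nuclei held 16.4, 13.6, 21.0 and 12.4 CPM, and 0.254, 0.230, 0.290 and 0.131 UMIs per nucleus. In CPM microglia-like nuclei overlapped them (8.90 to 17.9), and per nucleus they did not (at most 0.0511). The D1-like level was 6.94 to 12.7 times the glial level per nucleus, and 3864 Pdyn UMIs were counted in D1-like nuclei in all. A Pdyn UMI was seen in 15.7% of D1-like, 2.41% of D2-like and 2.35% of oligodendrocyte-like nuclei at full depth. With called doublets retained, the D1 name went to 11134 in place of 17673 nuclei, and the mean was 6.13 in place of 15.8 CPM.

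**Figure D2:**
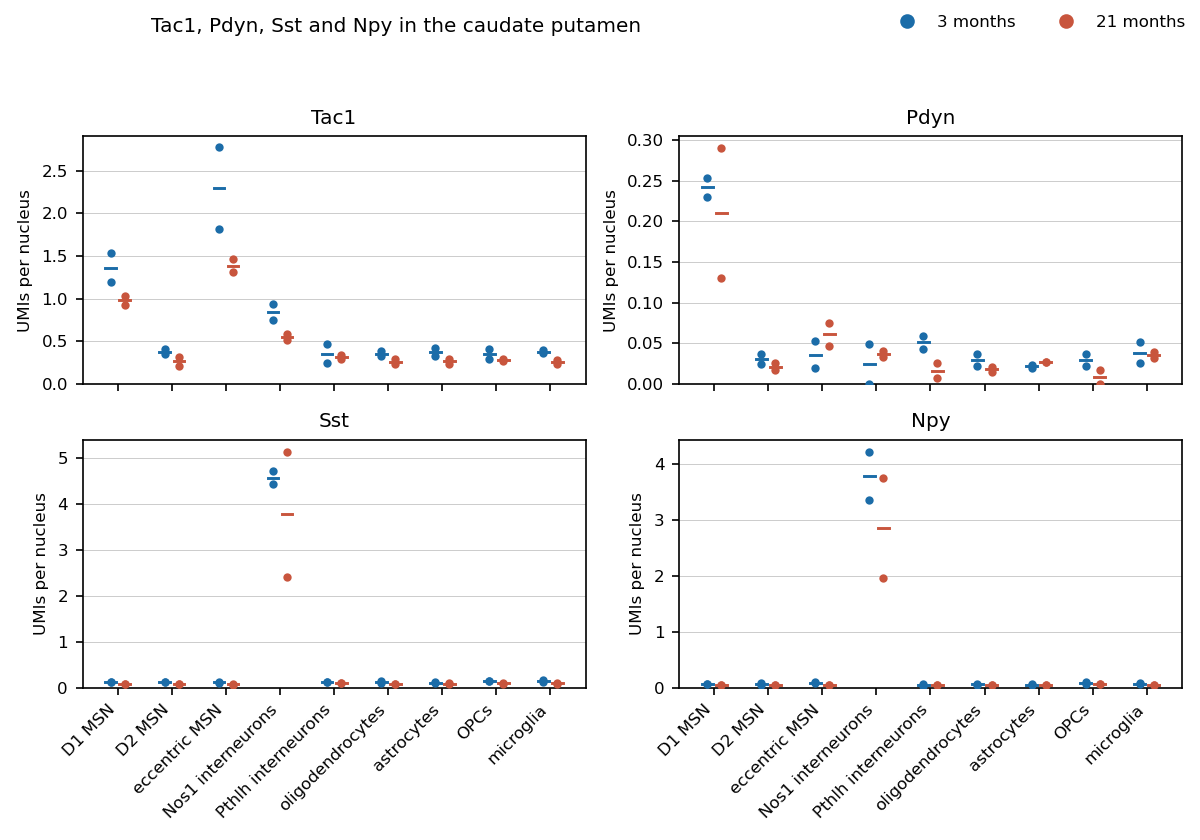
Tac1, Pdyn, Sst and Npy in the caudate putamen as UMIs per nucleus. Points are libraries and bars means of 2 libraries of 1 age. Tac1 is high in D1 and eccentric MSN, Pdyn in D1 MSN, and Sst and Npy in Nos1 interneurons alone among the classes drawn. Old libraries were less deep, so this scale does not compare ages.

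Tac1 and Pdyn were uneven within D1-like nuclei. Among the 4 D1-like clusters, cluster 5 held 147, 172, 134 and 137 CPM of Tac1, and clusters 3, 4 and 8 held 52.7 to 78.5 CPM with no overlap. Pdyn was 37.9, 41.1, 46.5 and 31.4 CPM in cluster 5, 22.2, 33.1, 28.5 and 14.1 CPM in cluster 8, and between 4.88 and 11.4 CPM in clusters 3 and 4. So the cluster highest in Tac1 was also the highest in Pdyn, while cluster 8 was high in Pdyn alone. Cluster 8 rested mainly on the first library of each age, with 730, 69, 676 and 23 nuclei. Penk was 45.4 to 70.0 CPM over all 4 D1-like clusters. In the D2-like clusters 6, 7 and 11 Penk reached 391, 408 and 314 CPM at most, and cluster 6, like cluster 8, lay mostly in the first libraries (689, 131, 584 and 35 nuclei). These cluster differences are descriptions, since other genes of the same nuclei drew the clusters.

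**Figure D3:**
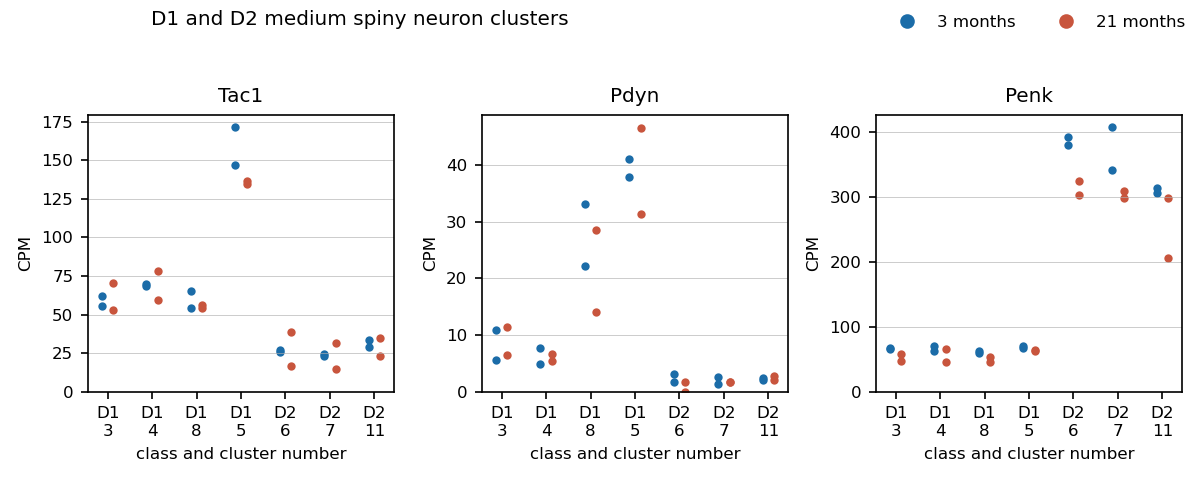
Tac1, Pdyn and Penk (CPM) in the D1 and D2 medium spiny neuron clusters of the caudate putamen, 1 point per library (blue 3 months, red 21 months). Cluster 5 is highest in Tac1 and Pdyn, and every D2 cluster is above every D1 cluster in Penk.

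Sst and Npy in the caudate putamen were highest in Nos1-like interneurons, of which the libraries held 61, 77, 61 and 99 nuclei. This sparse class held 15.1% to 22.9% of the Sst UMIs and 21.8% to 26.8% of the Npy UMIs of a library. The 4 glial classes together held 20.3% to 30.6% and 20.3% to 28.2%. In CPM the unnamed cluster of low depth came next, with means of 148 for Sst and 76.8 for Npy. Sst was 402, 316, 454 and 228 CPM there, 28.2 to 66.6 times the glial level per nucleus. Npy was 360, 239, 331 and 186 CPM, 47.9 to 84.5 times that level. For both genes the second old library was lowest. The old libraries held both the lowest and the highest value of Sst, and for Npy a young library was highest. D1-like and D2-like nuclei held Sst and Npy at the level of glia.

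Within Nos1-like nuclei a sub-cluster of 19 to 23 nuclei per library combined Sst with Tac1. It held 435, 385, 453 and 306 CPM of Sst, 276, 117, 181 and 157 CPM of Npy and 210, 134, 114 and 102 CPM of Tac1. The largest Nos1-like sub-cluster (37, 56, 37 and 66 nuclei) held 447, 308, 520 and 242 CPM of Sst, 447, 280, 416 and 224 CPM of Npy and 31.6, 30.1, 23.4 and 36.0 CPM of Tac1. In every library the smaller sub-cluster had more Tac1 and less Npy.

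Where a nucleus is thinned to 2000 UMIs so that deep and shallow nuclei compare, 45.7% of D2-like nuclei (SD 4.73, n = 4 libraries) had a Penk UMI, against 11.8% (SD 2.03) of D1-like, 35.4% (SD 5.86) of oligodendrocyte-like and 41.0% (SD 9.43) of microglia-like nuclei. Without thinning the shares were 90.7%, 53.3%, 49.2% and 50.7%. The shares are set beside the glial ones, and whether the D1-like or glial share is expression or free RNA was not tested. Thinned shares carry the same dependence on total RNA as CPM does. For Tac1 the thinned shares were 15.5% of D1-like, 22.4% of eccentric-like, 5.04% of D2-like and 16.6% of oligodendrocyte-like nuclei (unthinned 59.6%, 64.4%, 26.5% and 25.4%). Thinning left out 10 of 17673 D1-like and 2143 of 12042 oligodendrocyte-like nuclei. Sst and Npy were well above the glial share in Nos1-like nuclei, with thinned shares of 45.3% (SD 9.13) and 37.7% (SD 10.5) beside 5.34% and 2.98% in oligodendrocyte-like nuclei. At full depth 89.7% and 83.0% of Nos1-like nuclei had them, beside 8.91% and 4.74%.

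Sst and Npy were seen in the same Nos1-like nucleus in 29.5%, 15.6%, 19.7% and 9.09% of nuclei thinned to 2000 UMIs. The product of the 2 single shares was 27.5%, 14.2%, 19.2% and 9.47%, so pairs were about as frequent as the single shares give. Oligodendrocyte-like nuclei had both in 0.510%, 0.133%, 0.0996% and 0.225%. Penk and Tac1 were seen together in a mean of 1.99% of D1-like, 2.18% of D2-like and 6.22% of oligodendrocyte-like nuclei. At full depth these means were 33.5%, 24.3% and 13.5%, so the order turned with depth and none is read from it. In hippocampal Adarb2-like interneurons thinned to 2000 UMIs, no nucleus of 97, 171, 39 and 43 had both Npy and Vip, where the products were 1.34%, 0.479%, 1.84% and 1.30%. At full depth 1, 4, 0 and 0 nuclei had both (1.03%, 2.34%, 0% and 0%), where the products were 5.36%, 5.87%, 7.89% and 3.57%.

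In glia the peptide counts followed the region. Across oligodendrocytes, astrocytes, OPCs and microglia, 26 of 40 pairs of gene and class passed the filter on low counts, and 24 of these differed between the caudate putamen and the hippocampus (edgeR quasi-likelihood, adjusted p under 0.05 over all genes of the class), where 12.4% of all gene and class pairs tested did. Of the 24, 18 were higher in the caudate putamen and 6 lower, beside 6.98% and 5.41% of all pairs. The filter keeps a gene that is counted in a single region, so members could enter through the region where they are high. The 24 of 26 is therefore a description and does not set the members apart from other genes. The test compares regions, and whether a glial nucleus made such RNA or held it as free RNA from the tissue was not tested.

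Penk, Tac1 and Sst, the genes of the striatal neurons above, were higher in caudate putamen in every one of the 4 classes. The log2 fold for Penk was 6.08 (SE 0.20, edgeR adjusted p = 7.42e-07) in oligodendrocyte-like, 5.72 (SE 0.19) in astrocyte-like, 5.72 (SE 0.24) in OPC-like and 5.29 (SE 0.19) in microglia-like nuclei. For Tac1 it was 6.58, 6.84, 3.24 and 7.01 in the same order (SE 0.25 to 0.40), and for Sst 3.45, 3.26, 3.64 and 3.21 (SE 0.24 to 0.46). The hippocampal side of some folds rests on few UMIs. Microglia-like nuclei there held 2 of Tac1 in all, and that fold was 9.61 with the replicate block. They held 12 UMIs of Sst, and hippocampal OPC-like nuclei held 10 of Sst and 10 of Penk. Npy was higher in 3 classes (1.66, 1.64 and, in microglia-like nuclei, 2.74) and did not pass in OPC-like nuclei (1.43, adjusted p = 0.0914). With the replicate block the microglia call was lost (1.91, adjusted p = 0.0991) and OPC-like nuclei were called (2.95, adjusted p = 0.0284). The Npy call in astrocyte-like nuclei (edgeR adjusted p = 0.0451) was kept under 8 alternatives and lost under 6. Pdyn was higher in the 3 classes where it was tested (1.99, 1.27 and 2.52). Its call in astrocyte-like nuclei was kept under 10 alternatives and lost under 4.

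Cck, a hippocampal pyramidal gene, went the other way, with log2 folds of -3.41, -3.69, -2.17 and -3.56. In OPC-like nuclei this call (adjusted p = 0.0305) was lost with DESeq2 (0.167), with the replicate block (0.659) and on leaving out the second young or second old hippocampal library, or the second young or first old caudate putamen library (0.0734 to 0.606). Vip was lower in caudate putamen in oligodendrocyte-like nuclei (-3.34, adjusted p = 0.0314). The caudate putamen side held 0, 1, 0 and 11 UMIs, so that the value rests on the second old library: the log2 fold was -5.74 without it and -7.54 with the replicate block. The call was lost on leaving out any of the 4 hippocampal or either young caudate putamen library (adjusted p 0.0507 to 0.169). In astrocyte-like nuclei all 4 caudate putamen libraries held 0 Vip UMIs, and the hippocampal level was at least 11.4-fold higher, set against a floor of 3 counts over the group. Nts did not differ in oligodendrocyte-like nuclei (log2 fold 0.47, SE 0.54, adjusted p = 0.661).

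Most genes listed as striatal neuron genes other than peptides were also higher in caudate putamen glia. Of 9 (Drd1, Drd2, Adora2a, Gpr6, Rgs9, Ppp1r1b, Pde10a, Adcy5 and Rasd2), 9, 8, 9 and 9 were higher in caudate putamen in oligodendrocyte-like, astrocyte-like, OPC-like and microglia-like nuclei, with a median log2 fold of 6.07, 4.10, 5.10 and 5.71. Of all genes tested in these classes 13.4%, 21%, 5.18% and 5.72% differed by region in either direction, with medians of -0.02, -0.01, 0.00 and 0.00. The 9 were chosen as striatal genes and could pass the filter through the caudate putamen, so their counts are a description. Some of their folds were small, at 0.36 for Pde10a and 0.53 for Adcy5 in OPC-like and 0.81 for Adcy5 in oligodendrocyte-like nuclei. The fold of Tac1 was smallest in OPC-like nuclei. Hippocampal OPC-like nuclei held 7.18, 4.17, 5.14 and 5.51 CPM of Tac1, 24 UMIs in all. That is 6.35 to 14.9 times the whole-library level, and the 4 values exceeded those of oligodendrocyte-like nuclei, 1.12, 1.76, 0.209 and 1.04 CPM, in every library. In caudate putamen OPC-like nuclei were level with other glia per nucleus.

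Other genes of the peptide pathway also differed by region in glia. Of the 13 processing and storage genes, 13, 13, 12 and 12 were tested, and 5, 4, 2 and 3 were higher and 2, 3, 1 and 0 lower in caudate putamen in oligodendrocyte-like, astrocyte-like, OPC-like and microglia-like nuclei, beside the 13.4%, 21%, 5.18% and 5.72% of all genes given above. Vgf was higher in each of the 4 (log2 folds 2.38, 2.50, 2.10 and 2.40). The other higher genes were Scg2, Scg5, Pcsk1, Pcsk2 and Pam, and the lower ones Cadps, Cadps2 and Cpe. Of the 23 receptor genes, 11 were tested in oligodendrocyte-like nuclei, with 3 higher and 2 lower (13.4% of all genes called). In astrocyte-like nuclei 14 were tested, with 5 higher and 2 lower (21%), and none of the 4 tested in each other class passed. The kappa opioid receptor Oprk1 was higher in both (4.98 and 6.14), as was the delta opioid receptor Oprd1 (2.92 and 2.13), while the neuropeptide Y receptors Npy1r (-1.26 and -1.63) and Npy2r (-2.06 and -2.45) were lower. Tacr1 was higher in oligodendrocyte-like nuclei and Ntsr1, Cckbr and Vipr1 in astrocyte-like nuclei. Among peptide genes other than the 10, Pthlh was higher and Grp lower in oligodendrocyte-like nuclei.

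In the hippocampus, Cck was found in pyramidal neurons and in interneurons. CA1-like pyramidal nuclei held 38.1, 44.7, 35.6 and 42.5 CPM, 3.65 to 18.7 times the glial level per nucleus. Adarb2-like interneurons, of the caudal ganglionic eminence, held 65.7, 35.9, 26.9 and 35.8 CPM, and CA3-like nuclei averaged 25.3 CPM. Microglia-like nuclei averaged 41.3 CPM with a range from 10.3 to 89.7, so these classes overlap. An unnamed cluster of low depth had the highest mean, 95.4 CPM (44.5 to 212), and a second unnamed cluster 44.2 CPM. An interneuron sub-cluster of 57 nuclei reached 128 CPM of Cck (150 UMIs, all libraries pooled).

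Vip was high in a single named class. Adarb2-like nuclei held 102, 77.2, 111 and 78.5 CPM, 85.3 to 593 times the glial level per nucleus, and no other named class reached a mean of 10 CPM. Within them a sub-cluster, singled out like the other sub-clusters after its values were seen, of 26, 36, 9 and 6 nuclei held 50.4%, 36.2%, 64.5% and 72.3% of all Vip UMIs of the library, and pooled over libraries it held 529 CPM of Vip and 40.2 CPM of Penk. Averaging the CPM of single nuclei in place of the sum gave 158 in place of 92.2 CPM for the class.

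The class named for Lhx6, a factor of interneurons from the medial ganglionic eminence, was not alone in carrying it. Lhx6 itself was 54.8, 54.9, 65.2 and 42.9 CPM there and higher in every library, 72.2, 75.2, 77.3 and 61.9 CPM, in the other interneuron-like nuclei, which held little Sox6 and Satb1. Of the 11 markers, 6 had a higher mean in the named class, so its name marks it off from Adarb2-like nuclei (Lhx6 at most 1.44 CPM) and not from the other interneurons. Sst was highest in these Lhx6-like nuclei, at 40.3, 32.8, 27.4 and 37.2 CPM, and no other class with at least 20 nuclei per library overlapped them. Npy was spread over all interneuron classes, with means of 38.9 CPM in Lhx6-like, 38.5 in other interneuron-like and 30.1 in Adarb2-like nuclei, whose ranges overlap. Cort, a relative of Sst, was highest in Lhx6-like nuclei at 11.2, 6.77, 10.3 and 4.76 CPM, from 47 UMIs. Other interneuron-like nuclei overlapped them, at 2.12, 3.09, 1.38 and 11.05 CPM from 13 UMIs, and were above them in the second old library. Tac1 was highest there as well, at 23.8, 9.62, 13.7 and 12.4 CPM from 84 UMIs, and 49 of the Tac1 UMIs of interneurons lay in a sub-cluster of 65 nuclei (38.3 CPM). A sub-cluster of 43 nuclei held 113 CPM of Sst and 71.7 of Npy, another of 50 nuclei 102 CPM of Npy.

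**Figure D4:**
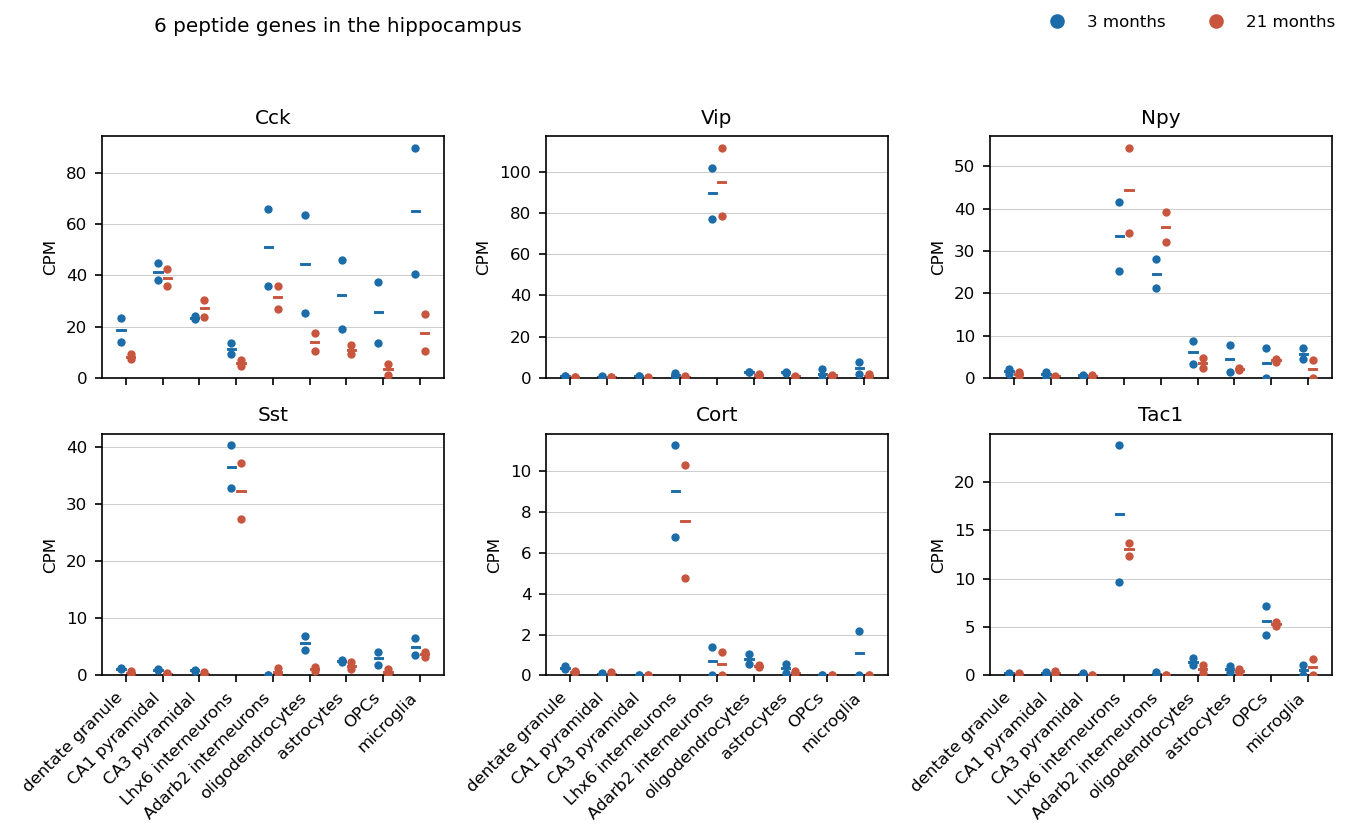
Cck, Vip, Npy, Sst, Cort and Tac1 in the hippocampus by class (CPM; points are libraries, bars means of 2 libraries of 1 age). Vip is highest in Adarb2 interneurons and Sst and Cort in Lhx6 interneurons, while Cck in glia is highest in the young libraries.

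Pdyn in the hippocampus was highest in dentate granule-like nuclei among the named neurons with at least 20 nuclei in every library, at 3.33, 4.54, 4.13 and 3.76 CPM, 3.94 to 9.12 times the glial level per nucleus. An unnamed cluster of low depth averaged 14.2 CPM of Pdyn. Penk was low, at a mean of 18.98 CPM from 13 UMIs in Cajal-Retzius-like nuclei, 9.59 in the unnamed cluster of low depth, 8.15 CPM in Adarb2-like, 4.98 in CA1-like and 2.94 in dentate granule-like nuclei. Adcyap1 and Nts were highest in an unnamed neuron cluster, at 4.12, 4.47, 4.92 and 2.72 CPM of Adcyap1 (55 UMIs) and 9.53, 10.7, 11.9 and 18.4 CPM of Nts. A second unnamed cluster overlapped it for Adcyap1, with 6.68 CPM from 14 UMIs in the first young library. Nts in the caudate putamen was seen in D2-like nuclei at 1.58, 1.58, 0.690 and 0.537 CPM. In pericyte-like nuclei it was 34.8, 28.4, 4.20 and 6.82 CPM, which rests on 14 UMIs. Adcyap1 in the caudate putamen came to 5, 7, 3 and 4 UMIs in the whole libraries, too few to describe.

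Age was tested in each class by 2 old against 2 young libraries. In 5 hippocampal neuron classes 21 of 50 pairs of gene and class passed the filter and 1 was called, where 1.41% of all gene and class pairs were called. In 5 caudate putamen neuron classes 26 of 50 passed and 1 was called, beside 1.64% of all. The called class was dentate granule-like in the one, where 4.17% of all genes were called, and D2-like in the other, with 4.82%. A single call in each region is too few to set the 10 genes apart from other genes. Without adjustment 5 and 6 pairs had an edgeR p under 0.05. The share of all genes at that level is not given here, so nothing is read from these 2 counts.

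The hippocampal call was Vip in dentate granule-like nuclei, at 1.03, 1.08, 0.295 and 0.308 CPM (log2 fold -1.76, SE 0.30, edgeR adjusted p = 0.0078). It was lower in both old libraries, and Vip there was at 0.634 to 1.23 times the glial level per nucleus. Adarb2-like nuclei, the class high in Vip, made up 0.941%, 1.01%, 0.454% and 0.673% of the libraries, lower in both old ones, and the part of this share in the call was not tested. In Adarb2-like interneurons the log2 fold was 0.17 (SE 0.20, adjusted p = 0.918). The call was lost without either old library, with adjusted p 0.113 and 0.0623. The caudate putamen call was Nts in D2-like nuclei (log2 fold -1.39, SE 0.25, edgeR adjusted p = 0.0298). Nts estimates were also below 0 in oligodendrocyte-like nuclei (-1.97, SE 0.53, adjusted p = 0.116) and D1-like nuclei (-1.005, SE 0.84) without passing, and whole libraries held 1.17, 0.877, 0.494 and 0.343 CPM. The D2-like call was lost on leaving out the second young library or either old one (adjusted p 0.0837 to 0.141) and without the clusters held mostly by the first libraries (0.103).

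Penk was lower in the old libraries in all 9 tested classes of the caudate putamen, and its call turned on the fit. Among these, D2-like (4.95 to 7.04 times) and eccentric-like nuclei (1.56 to 2.48 times) stood above the glial level per nucleus. D1-like, Nos1-like and Pthlh-like nuclei lay near it, at 1.10 to 1.28, 1.01 to 1.34 and 1.04 to 1.14 times. In D2-like nuclei the log2 fold was -0.35 (SE 0.09, edgeR adjusted p = 0.0663), which missed the threshold and which DESeq2 (adjusted p = 0.0175) and edgeR with no filter on low counts (0.00772) called. With the replicate number as a block, for numbers that no label ties to shared animals, edgeR called Penk in D2-like (adjusted p = 0.0023), D1-like (0.0164) and microglia-like nuclei (0.0483). In astrocyte-like nuclei it was called with no filter (6.31e-05) and without either young hippocampal library (0.0328 and 0.0325). In D1-like nuclei it was -0.28, in eccentric-like -0.28, in Nos1-like -0.26 and in Pthlh-like interneurons -0.57. In oligodendrocyte-like, astrocyte-like, OPC-like and microglia-like nuclei it was -0.36, -0.64, -0.37 and -0.57. Both old libraries were below both young ones in CPM in 9 of these 9 classes, where 23.4% of all gene and class pairs tested in them were. The classes come from the same 4 libraries and are not 9 observations. After subtraction of the oligodendrocyte-like level, D1-like nuclei held 10.9 and 7.01 CPM of Penk in young and 11.4 and 7.37 CPM in old libraries. D2-like nuclei held 288 and 315 CPM in young and 257 and 225 CPM in old libraries. The part of the level shared with glia in the age folds was not tested. The age effect on Penk did not differ in the test of D2-like against D1-like nuclei (log2 difference -0.06, SE 0.15, adjusted p = 0.984). Of the 7 members tested for that difference, edgeR called 0, DESeq2 called 0, and 0 had an unadjusted p under 0.05, where 0.171% of all genes were called.

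No other peptide passed the age test in a neuron class. In dentate granule-like nuclei 8 of the 9 members tested were below 0, with a median of -1.14 beside -0.01 for all genes. The share of all genes below 0 in this class is not given here. Per nucleus Sst, Npy and Tac1 were at 0.572 to 1.14, 0.583 to 1.34 and 0.122 to 0.549 times the glial level in this class. Cck was at 1.21 to 2.04, Nts at 0.486 to 4.12 and Cort at 1.67 to 3.76 times. Penk was at 1.85 to 3.39 and Pdyn at 3.94 to 9.12 times. Sst there was 1.13, 1.31, 0.227 and 0.813 CPM (log2 fold -1.26, SE 0.43, adjusted p = 0.172), and Cort (-1.14, SE 0.43) and Nts (-1.57, SE 0.70) did not pass either. With no filter on low counts Sst, Npy, Cck and Nts were called in this class as well (edgeR adjusted p 0.0202 or less). The share of all genes called without the filter is not given here, so these calls do not set the members apart. Tac1 in eccentric-like nuclei had a log2 fold of -0.36 (SE 0.16) and Pdyn there of 1.18 (SE 0.46, adjusted p = 0.423). Npy had 0.65 (SE 0.27, adjusted p = 0.776) in Adarb2-like and 0.61 (SE 0.31) in Lhx6-like interneurons. These 4 estimates are 2 or more SE from 0. Tac1 in D1-like nuclei had a log2 fold of -0.08 (SE 0.12) and Pdyn of 0.13 (SE 0.32). Sst and Npy in Nos1-like nuclei had -0.07 (SE 0.31) and -0.20 (SE 0.30). Cck in CA1-like nuclei had -0.01 (SE 0.12, adjusted p = 0.984) and in CA3-like nuclei 0.22 (SE 0.18). In dentate granule-like nuclei Cck was 13.9, 23.4, 7.20 and 9.22 CPM, lower in both old libraries, and the log2 fold of -1.15 (SE 0.26) had an adjusted p of 0.0906. It was called with the replicate block (2.48e-05) and without the first (1.17e-08) or second (0.00213) young library. The estimates that lie near 0 do not show that the ages are alike.

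In glia, 52 of 80 pairs were tested for age and 1 passed, beside 0.649% of all pairs. It was Cck in hippocampal OPC-like nuclei (log2 fold -2.82, SE 0.59, edgeR adjusted p = 0.0092), a class with 1.04% of all genes called. These nuclei held 84 Cck UMIs in all, at 0.0789, 0.246, 0.01 and 0.0391 UMIs per nucleus, most of them in the second young library. Cck in oligodendrocyte-like, astrocyte-like and microglia-like nuclei had log2 folds of -1.66, -1.56 and -1.84 without passing. With the replicate block these 3 were called (edgeR adjusted p = 0.0333, 0.00723 and 0.0169), and with no filter the first (2.03e-12) and the last (0.00305) were. Sst in hippocampal oligodendrocyte-like nuclei was 4.48, 6.87, 0.836 and 1.56 CPM, lower in both old libraries. Its log2 fold of -2.26 (SE 0.52) had an edgeR adjusted p of 0.069, and DESeq2 (0.00681) and edgeR with no filter (5.22e-06) called it. Without the first young hippocampal library Npy (-1.88, edgeR adjusted p = 0.00618), Cck (-2.05, 0.0492) and Penk (-1.22, 0.0393) were called in hippocampal astrocyte-like nuclei, and Cck (-2.24, 0.015) in microglia-like nuclei. In hippocampal oligodendrocyte-like nuclei 8 of 8 members tested were below 0 (median -1.23, all genes -0.04), and in hippocampal astrocyte-like nuclei 7 of 7 (median -0.79, all genes 0.00). In hippocampal OPC-like nuclei 3 of 5 were, and in microglia-like nuclei 5 of 6. In the caudate putamen it was 7 of 8, 4 of 7, 3 of 5 and 5 of 6 in oligodendrocyte-like, astrocyte-like, OPC-like and microglia-like nuclei. The share of all genes below 0 is not given here. For Cck all 4 hippocampal glial classes had both old libraries below both young ones in CPM, where 24.6% of all pairs did, and for Penk and for Tac1 1 of the 4 had. The second young library stood apart, with 63.4 CPM of Cck in oligodendrocyte-like nuclei beside 25.5, 10.5 and 17.4 in the others, and without it the OPC call had an adjusted p of 0.659. Without the first old library it was 0.188, without the second the log2 fold was -4.20 (adjusted p = 0.0327), and DESeq2 gave no adjusted p for it. The second young library also held 715 of the 891 nuclei of an unnamed cluster of low depth. CA1-like nuclei, which held 16.5% to 26.9% of the Cck UMIs of a library, made up 7.98%, 6.48%, 3.11% and 3.02% of the libraries, lower in both old ones. Dentate granule-like nuclei held more of the Cck UMIs, 30.6% to 41.6%. The part of the CA1-like share in the glial result was not tested.

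**Figure D5:**
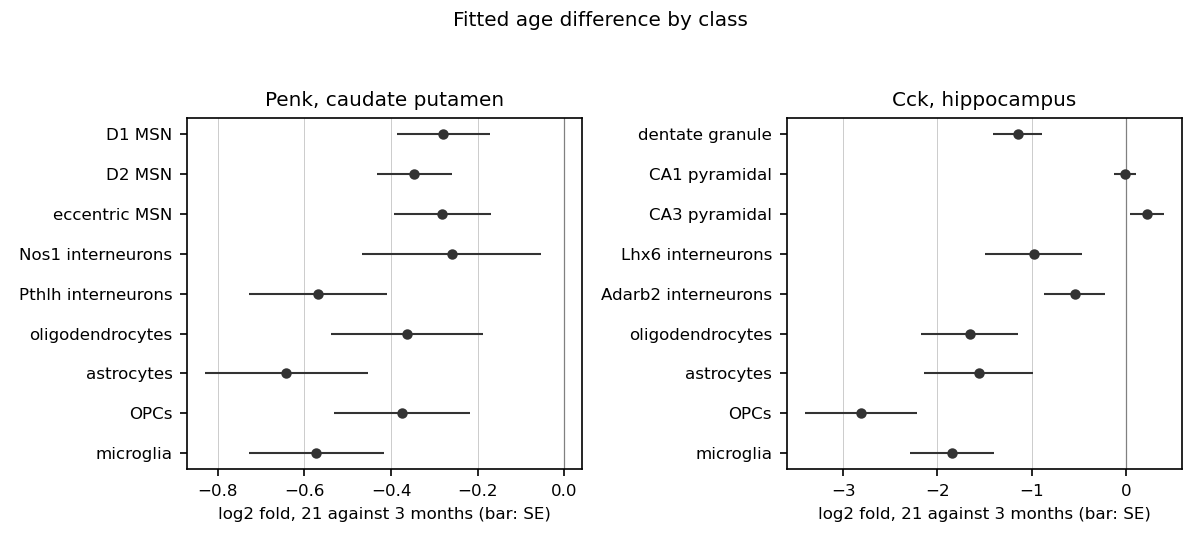
Fitted log2 fold of 21 against 3 months for Penk in classes of the caudate putamen (left) and Cck in classes of the hippocampus (right), with the standard error as bar. All 9 Penk estimates are below 0, and Cck is near 0 in CA1 pyramidal nuclei and below 0 in glia.

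Genes that process or store peptides passed the age test in 3 of the 10 neuron classes. Of the 13 processing and storage genes in the list, 13 were tested in D1-like and in D2-like nuclei. In both, where 1.41% and 4.82% of all genes were called, Vgf, a secreted granin-like protein, was lower at 21 months (log2 fold -0.91, edgeR adjusted p = 0.0433, and -1.15, adjusted p = 0.00482) and Scg3, a vesicle granin, was higher (0.52 and 0.57, adjusted p = 0.0429 and 0.0201). In dentate granule-like nuclei Pcsk2, a convertase, was higher (0.36, adjusted p = 0.00637), and no other hippocampal neuron class had a call. In glia 13 genes of the list were tested in oligodendrocyte-like nuclei of each region (1.03% of all genes called in the hippocampus and 1.17% in the caudate putamen) and 12 in OPC-like nuclei (1.04%). Cadps2, which primes vesicle release, was higher in old oligodendrocyte-like nuclei of the hippocampus (0.92, adjusted p = 0.00393) and the caudate putamen (0.91, adjusted p = 0.00271) and in hippocampal OPC-like nuclei (0.62, adjusted p = 0.0389). Pam, which amidates peptides, was higher in caudate putamen oligodendrocyte-like nuclei (0.40, adjusted p = 0.0484). The medians over the list were -0.02 in D1-like and 0.01 in D2-like nuclei, beside 0.00 for all genes, and -0.57 in hippocampal oligodendrocyte-like and -0.72 in hippocampal astrocyte-like nuclei, beside -0.04 and 0.00. They were -0.16 in hippocampal OPC-like and -0.41 in hippocampal microglia-like nuclei. In the caudate putamen they were 0.11, -0.12, 0.05 and -0.07 in oligodendrocyte-like, astrocyte-like, OPC-like and microglia-like nuclei.

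Of 23 receptor genes, 15 were tested in dentate granule-like nuclei (4.17% of all genes called), where Npy2r was lower (-0.47, edgeR adjusted p = 0.0484) and Oprd1 higher (0.62, adjusted p = 0.0181). Of 14 tested in D2-like nuclei, Vipr1 was higher (0.38, adjusted p = 0.04), 1 call where 4.82% of all genes were called. In the other 8 neuron classes no receptor passed. Of the 9 striatal genes, Gpr6 (-0.98) and Ppp1r1b (-0.46) were lower in old D2-like nuclei, and Gpr6 (-0.81) in old D1-like nuclei, where its UMIs per nucleus were close to those of oligodendrocyte-like nuclei. Ppp1r1b was also lower in old oligodendrocyte-like nuclei of the caudate putamen (-0.75, edgeR adjusted p = 0.0408), and Rgs9 in old CA1-like nuclei (-0.84, adjusted p = 0.0457), where 0.958% of all genes were called.

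The genes with the most similar pattern over 24 classes of both regions were named by a fixed rule, the highest Pearson correlations of log2 levels among 14641 genes. Penk lay closest to Gpr6 (r = 0.975), Tac1 to Drd1 (0.949), and Pdyn to Isl1 (0.860) and Pcp4 (0.842). Sst was closest to Rtl5 (0.811) and Nrsn2 (0.796), Npy to 9430021M05Rik (0.857) and Nxph2 (0.780), and Vip to Slc17a8 (0.889) and Abcb5 (0.858). Cck was closest to Neurod2 (0.914) and Nrn1 (0.907), Cort to Gm34623 (0.850) and Gm42679 (0.804), and Nts to Gm34777 (0.915) and Mylk4 (0.901). Adcyap1 was closest to Col6a6 (0.725) and Npsr1 (0.679), on a highest level of only 0.903 CPM among these 24 classes, which leave out the unnamed clusters. The points share libraries, and the correlations are descriptions.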

How the data were processed

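The authors deposited raw counts of UMIs per gene and nucleus barcode, whole numbers with no normalization. Cell Ranger is given as 6.1.2 per the file headers of 7 libraries and as 7.0.0 for the second library of young caudate putamen, while the submitters' processing notes name Cell Ranger 4.0.0 and mm10. Whether intronic reads were counted is not given in the sources used here and may differ between libraries. The difference in version lies within the young caudate putamen group. Its part in the caudate putamen age tests and in the region tests was not tested.

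Nuclei under 500 genes or over 5% mitochondrial UMIs were dropped, and doublets called by Scrublet (scanpy 1.11.5) were removed. In the second young hippocampal library Scrublet's own threshold marked 71.1% of nuclei, so the threshold there was set at the expected rate and removed 15.6%, beside 2.55% to 13.9% in the others. Clustering was separate for each region (3000 variable genes without 33 peptide genes, 40 components, 20 neighbours, Leiden resolution 1.0). Clusters were named from fixed markers by a rule that went through 7 versions judged on class tables, before member levels were viewed. Counts were summed per class and library, for classes with at least 20 nuclei in each library, and compared by quasi-likelihood in edgeR 4.0.16 (TMM, filterByExpr, Benjamini-Hochberg over all genes of the class, called at an adjusted p under 0.05). DESeq2 1.42.0 was an alternative. Standard errors come from the F statistic. An exact permutation of 2 against 2 libraries has 6 arrangements and cannot go below p = 0.333, so it was not used. On simulated counts for the real genes, the age test in D1-like nuclei recovered 70.4% of log2 changes of 1 and 96.0% of 2, and 16.2% of its calls were false. In Nos1-like nuclei it recovered 47.9% and 89.9%, and 4.97% of its calls were false.

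The members, the gene lists and the tests were chosen with earlier results of these data known. All 10 members are described, genes of the lists are named where they passed, and the 2 genes most like each member are named, except that 1 gene is not reported here and is left out of the list counts. Nuclei without a class name entered no test.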

Additional observations from a re-analysis of the deposited data

How the results depend on the processing

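Leaving out each library in turn gave 0 to 3 calls in place of 1 for age in hippocampal neurons, 0 to 1 in place of 1 in caudate putamen neurons, 0 to 7 in place of 1 in glia, and 20 to 25 in place of 24 for region. With no filter on low counts the age counts were 5, 2 and 5 in the same order, and DESeq2 called 2 in caudate putamen neurons. The shares of all genes called under the alternatives are not given here, so counts under them cannot be set against other genes. Without the clusters held mostly by the first libraries, an alternative chosen after seeing the data, no member was called in caudate putamen neurons (0). The difference between D1-like and D2-like nuclei had 0 calls under every alternative run.

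The replicate numbers pair no stated animals, and with 2 pairs the pairing cannot be settled. Deviations of same-numbered libraries correlated over genes at r = 0.38 in D1-like and 0.28 in D2-like nuclei, and at r = -0.14 in CA3-like nuclei. With the replicate block the age counts were 2 in hippocampal neurons, 3 in caudate putamen neurons and 5 in glia, and 23 for region. The shares of all genes called with the block are not given here either. By edgeR the block added Penk in D2-like (adjusted p = 0.0023), D1-like (0.0164) and caudate putamen microglia-like nuclei (0.0483). It added Cck in dentate granule-like nuclei (2.48e-05) and in hippocampal oligodendrocyte-like (0.0333), astrocyte-like (0.00723) and microglia-like nuclei (0.0169). With crossed numbers, a block run for the hippocampal neuron classes only, the hippocampal count was 1.

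Levels in CPM after subtraction of the oligodendrocyte-like level were 271 for Penk in D2-like and 9.17 in D1-like nuclei, 60.5 for Tac1 in D1-like and 1.09 in D2-like nuclei, and 35.0 for Cck in CA1-like nuclei. With doublets retained Tac1 was 66.2 and Pdyn 6.13 in D1-like nuclei, and the mean over nuclei gave 158 for Vip in Adarb2-like nuclei. At 1000 UMIs the shares were 26.5% and 6.37% for Penk in D2-like and D1-like nuclei, 20.03% in oligodendrocyte-like nuclei, 8.39% for Tac1 in D1-like and 9.78% in oligodendrocyte-like nuclei. Unthinned they were 90.7%, 53.3%, 49.2%, 59.6% and 25.4%, and with doublets retained Tac1 in D1-like nuclei was 12.6%. Sst with Npy in Nos1-like nuclei was 9.21% at 1000 UMIs and 75.4% unthinned. Penk with Tac1 was 0.609% and 33.5% in D1-like (1.53% with doublets retained), 0.893% and 24.3% in D2-like, and 2.08% and 13.5% in oligodendrocyte-like nuclei.

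Of the single values under alternatives, 537 kept their direction and their side of the threshold, 33 no longer passed, 19 passed anew and 12 turned sign. The 12 were log2 folds of age whose main value was near 0. Leaving out 1 library at a time gave -0.11 to 0.10 for Cck in CA1-like nuclei, -0.10 to 0.42 for Vip in Adarb2-like nuclei, -0.21 to 0.062 for Tac1 and -0.31 to 0.47 for Pdyn in D1-like nuclei, and -0.62 to 0.36 for Sst and -0.64 to 0.17 for Npy in Nos1-like nuclei. The lone values that turned were 0.08, 0.10 and, with doublets retained, 0.11 for Cck, -0.05 and -0.10 for Vip, 0.06 and 0.03 for Tac1, -0.31 for Pdyn, 0.09 and 0.36 for Sst, and 0.09 and 0.17 for Npy. The causes were not tested. Depth limits Adcyap1, Cort and Nts, and 2 libraries per group limit every age test.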
